A study of Mus musculus with 9 samples.

Results

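Integrins are the cell surface receptors with which epidermal cells hold and crawl over the matrix beneath them, and 10 keratinocyte subunit genes are described here in basal cells near a healing wound: Itga2, Itga3, Itga5, Itga6, Itga9, Itgav, Itgb1, Itgb4, Itgb5 and Itgb6. They were picked by name among 17097 measured genes, and all 25 probe sets that the array annotation gives to 1 of these symbols alone were read. The brightest probe set over the 9 arrays stands for its gene, and the others are given beside it.

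The study profiled basal cells of mouse tail interfollicular epidermis on Affymetrix arrays, in CD1 mice, 4 days after a 3 mm wound. Leading edge (LE) cells came from a 4 mm punch round the wound and were gated as positive for α5 integrin at the surface. Proliferative hub cells were labelled as negative for α5 integrin. The methods of the paper took the hub with a 6 mm punch. Its account of the α5 sort names only control skin and the 4 mm punch, so the punch behind these hub arrays is not certain. Skin distant from the wound gave the control cells, for which the labels state no α5 gate. All 3 groups shared the gate for α6 integrin and against CD34, and each group held 3 arrays, each of 300 sorted cells from tissue pooled from 5 mice. Region, wounding and the α5 gate cannot be told apart in these groups. Itga5 and Itga6 encode the 2 proteins used for sorting, so their levels are a description and were not tested, which left 8 genes. The surface partner of α5 is β1, and that of α6 in the basal layer is mainly β4, so the gates bear on these genes as well.

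Each integrin is a pair of an α and a β subunit, and the pair sets what the receptor binds. In keratinocytes, β1 pairs with α2 to bind collagen, with α3 to bind laminin, with α5 to bind fibronectin and with α9 to bind tenascin C and other ligands. The αv chain pairs with β5, a receptor for vitronectin, and with β6, an epithelial receptor for fibronectin and tenascin that also activates latent TGF-β. The α6β4 pair is the laminin receptor of hemidesmosomes, which anchor basal cells to the basement membrane.

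The arrays resembled each other closely. Their medians lay between 6.47 and 6.53 on the log2 scale, and pairs of arrays of 1 group correlated at 0.988 to 0.995, against 0.964 to 0.986 for pairs of different groups, with 0 identical pairs. Levels inside the range of the 23 nonspecific background probe sets (3.66 to 8.61, with 4.66 as their median) are less well measured, which holds for Itga9 in all groups and for Itga2, Itga5 and Itgb6 in hub and control. Basal markers were bright in every group: the 5 basal keratinocyte markers averaged 12.87 to 12.94 at the LE, 12.88 to 12.89 in the hub and 12.93 to 12.99 in control, with 0 of 5 called in any comparison. The suprabasal keratins were bright too, with Krt1 at 11.29 at the LE, 13.02 in the hub and 12.62 in control. Krt10 averaged 11.26, 12.73 and 12.77 in the same groups, so bright basal markers alone do not show that only basal cells were read. Krt5, a keratin of basal cells, averaged 13.28 ± 0.05 at the LE, 13.29 ± 0.03 in the hub and 13.32 ± 0.02 in control, and Krt14 averaged 13.30 ± 0.04, 13.28 ± 0.01 and 13.30 ± 0.01 in the same groups (log2 signal, SD, n = 3). Cd34, whose protein was gated out, averaged 4.79 ± 0.17 at the LE, 4.74 ± 0.02 in the hub and 4.60 ± 0.09 in control.

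Endothelial and myeloid markers were uneven between arrays. The mean of 11 endothelial markers was 7.38, 6.43 and 6.53 at the LE, 6.43, 6.83 and 6.82 in the hub and 6.40, 6.25 and 6.15 in control. Their summed signal ranged from 1075 to 2582 at the LE, 1082 to 1530 in the hub and 878 to 1011 in control, with 0 of 11 called in any comparison. Cdh5, the cadherin that defines endothelial cells, stood at 9.73, 7.02 and 6.86 at the LE, 6.57, 8.39 and 8.42 in the hub and 6.44, 6.96 and 6.10 in control. LE replicate 1 and hub replicates 2 and 3 were thus the arrays with most endothelial signal. The mean of 12 myeloid markers was 6.74, 5.97 and 6.55 at the LE, against 5.91 to 5.94 in the hub and 5.89 to 5.90 in control. Their summed signal was 856 to 1559 at the LE, 823 to 844 in the hub and 809 to 825 in control. Cd14 was the myeloid marker called between LE and hub (0.88 ± 0.14, adjusted p = 0.00422), and Lyz2 and Cd14 were called between LE and control. Of all genes, 10.6% and 22.8% were called in these comparisons, in either direction. In such pooled cells, fewer cells of a type and less RNA per cell cannot be told apart.

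The sequences below are the 250 bases before the annotated start of the 4 genes on which the comparisons turned most, Itga2, Itgb6, Itgb1 and Itgb5, printed so that the genes that were higher at the LE can be read beside the one that was lower. They are RefSeq promoters of mouse build GRCm38.p6, written 5′ to 3′ on the strand of the gene, and the capitals mark matches, on either strand, to the letters GGGCGG (an SP1/KLF box), GGAATG (a TEAD site), CAGAC (an extended SMAD box) or TGANTCA (an AP-1 site). Itga2 lies on the minus strand (chr13:114932101-114932350), Itgb1 on the plus strand (chr8:128685404-128685653) and Itgb5 on the plus strand (chr16:33829415-33829664). Itgb6 lies on the minus strand and has 2 listed starts, the start of the gene (chr2:60722604-60722853) and one 48910 bases downstream of it (chr2:60673694-60673943).
Itga2: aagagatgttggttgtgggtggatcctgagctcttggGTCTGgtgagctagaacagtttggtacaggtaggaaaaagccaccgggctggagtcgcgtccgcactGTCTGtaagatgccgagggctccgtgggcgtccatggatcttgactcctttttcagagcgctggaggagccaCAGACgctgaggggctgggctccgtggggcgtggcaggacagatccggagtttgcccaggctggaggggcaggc
Itgb1: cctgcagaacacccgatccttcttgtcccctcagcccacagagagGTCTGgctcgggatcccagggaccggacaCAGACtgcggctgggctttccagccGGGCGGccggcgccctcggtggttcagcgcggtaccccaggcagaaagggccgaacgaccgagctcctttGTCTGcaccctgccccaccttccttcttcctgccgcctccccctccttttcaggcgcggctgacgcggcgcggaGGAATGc
Itgb5: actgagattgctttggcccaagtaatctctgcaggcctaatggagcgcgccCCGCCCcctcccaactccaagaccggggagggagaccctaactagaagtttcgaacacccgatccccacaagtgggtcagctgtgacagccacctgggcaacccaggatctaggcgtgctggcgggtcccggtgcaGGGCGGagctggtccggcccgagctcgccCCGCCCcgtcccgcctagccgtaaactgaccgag
Itgb6, gene start: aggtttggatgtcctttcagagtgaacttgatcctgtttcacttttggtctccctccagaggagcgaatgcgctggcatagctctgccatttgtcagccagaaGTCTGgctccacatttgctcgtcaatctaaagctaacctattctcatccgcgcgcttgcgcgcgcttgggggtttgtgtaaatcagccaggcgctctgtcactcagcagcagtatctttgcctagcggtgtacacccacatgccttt
Itgb6, downstream start: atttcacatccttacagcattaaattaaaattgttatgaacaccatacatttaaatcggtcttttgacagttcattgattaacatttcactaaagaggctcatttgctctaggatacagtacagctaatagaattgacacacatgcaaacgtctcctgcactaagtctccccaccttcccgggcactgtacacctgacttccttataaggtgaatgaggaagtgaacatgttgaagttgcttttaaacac

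Itga2 held 3 SMAD matches, Itgb1 held 3 SMAD matches with 1 SP1/KLF and 1 TEAD match, and Itgb5 held 3 SP1/KLF matches. Of the Itgb6 windows, the one at the gene start held 1 SMAD match and the downstream one held 0 matches. Among the windows not printed, Itga3, also called higher at the LE, held 3 SP1/KLF matches and 1 SMAD match near its gene start. Its other window held 1 SP1/KLF match. Itga5 held 2 SP1/KLF matches, and Itga9 and Itgav held 0 matches. Over all 32851 promoters in the table, 42.2% of windows of 250 bases held a SMAD match, 32.7% an SP1/KLF match, 12.6% a TEAD match and 6.75% an AP-1 match. The AP-1 letters were in 0 of the 10 member windows, which says only that these letters are not there. The table listed 8 of the 10 genes, with Itga6 and Itgb4 the genes not matched. The listed starts of Itga9 and Itgav lie 104983 and 2094 bases from the start of the gene, so these windows do not adjoin the gene start.

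Of the sort genes, Itga5 was highest in the group gated as positive for its protein. It stood at 9.10, 9.06 and 9.17 at the LE, 6.46, 7.47 and 6.81 in the hub and 6.46, 6.23 and 6.50 in control (log2 signal). The LE arrays lay well apart from both other groups, and hub replicate 2 was the highest array outside the LE. The mean at the LE differed by 2.19 (4.57-fold) from the hub and by 2.71 (6.56-fold) from control, and the hub differed by 0.52 (1.43-fold) from control. Itga6 stood at 12.31, 12.25 and 12.25 at the LE, 11.76, 11.83 and 11.80 in the hub and 11.52, 11.64 and 11.57 in control. Its 3 groups did not overlap, with the LE highest and control lowest, although every cell was gated as positive for the protein. Its second probe set gave 0.56 between LE and hub, 0.74 between LE and control and 0.18 between hub and control.

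LE and hub cells were compared to see how migrating cells at the wound front differ from the dividing cells behind them in the receptors they express. Of the 8 genes tested, Itga2, Itga3, Itgb1, Itgb4 and Itgb6 were called higher at the LE and Itgb5 was called lower, while Itgav and Itga9 did not pass (adjusted p under 0.05). Over all genes, 5.39% were called higher and 5.23% lower in this comparison, and the median difference was 0.50 over the 8 genes and -0.01 over all genes. The groups did not overlap for 7 of the 8 genes, against 30.0% of all genes. Of the 22 probe sets of these genes, 11 were called higher and 2 lower, against 5.00% and 4.54% of all probe sets with 1 symbol.

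Against control, the same 6 genes were called, 5 higher and 1 lower, where 11.9% of all genes were called higher and 10.8% lower. The median difference was 0.55 over the 8 genes and 0.02 over all genes, and the groups did not overlap for 7 of the 8 genes, against 36.2% of all genes. Both comparisons share the LE arrays, so they are not independent of each other. Between hub and control, Itgb1 was the 1 gene called higher and 0 were called lower, against 4.16% and 3.12% of all genes (7.28% in either direction). Of the 22 probe sets, 2 were called higher and 1 lower in the hub, against 3.30% and 3.10% of all probe sets. At an unadjusted p under 0.05, 1 of the 8 genes was higher and 1 lower there, against 1929 higher and 1402 lower of all 17097 genes. The groups did not overlap for 3 of the 8 genes, against 23.8% of all genes.

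**Figure D1:**
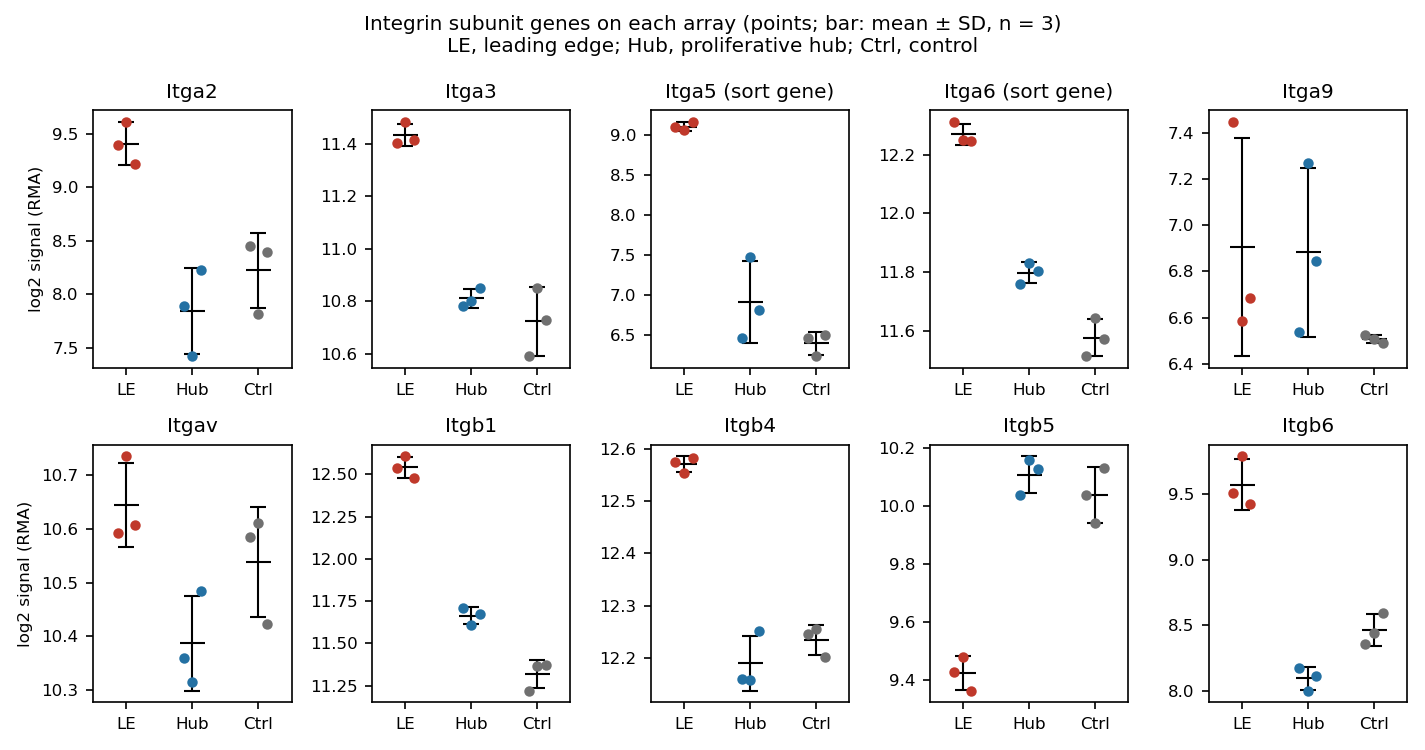
Log2 signal of the 10 integrin subunit genes on each of the 9 arrays (points), with the group mean and SD (n = 3 each; LE, leading edge; Hub, proliferative hub; Ctrl, control); the vertical scale differs between genes. Itga2, Itga3, Itga5, Itga6, Itgb1, Itgb4 and Itgb6 stood higher on every LE array than on any other array, Itgb5 stood lower, and Itga9 overlapped between LE and hub.

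Among the α chains that pair with β1, the collagen receptor gene Itga2 differed most between LE and hub of those tested. It stood at 9.40, 9.61 and 9.22 at the LE, 7.89, 7.42 and 8.22 in the hub and 8.46, 7.81 and 8.40 in control. Every LE array lay above every other array, while hub and control overlapped and hub replicate 2 was the lowest of all. Itga2 was higher at the LE than in the hub by 1.57 ± 0.22 (2.96-fold, 95% interval 1.06 to 2.07, adjusted p = 0.00195) and than in control by 1.19 ± 0.22 (2.28-fold, adjusted p = 0.0039). Hub minus control was -0.38 ± 0.22, with an interval of -0.88 to 0.12 (adjusted p = 0.416).

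Itga3, whose product binds laminin-332 with β1, stood at 11.40, 11.48 and 11.42 at the LE, 10.78, 10.80 and 10.85 in the hub and 10.59, 10.85 and 10.73 in control. The LE was apart from both other groups with little spread, and hub and control overlapped. It was higher at the LE than in the hub by 0.62 ± 0.08 (1.54-fold, adjusted p = 0.000989) and than in control by 0.71 ± 0.08 (1.64-fold, adjusted p = 0.000157), and hub minus control was 0.09 ± 0.08 with an interval of -0.09 to 0.26. All 3 probe sets of Itga3 were called in both comparisons with the LE, by 0.62, 0.59 and 0.66 against the hub and by 0.71, 0.82 and 0.90 against control.

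The common β1 chain, Itgb1, separated all 3 groups. It stood at 12.54, 12.61 and 12.48 at the LE, 11.71, 11.61 and 11.67 in the hub and 11.22, 11.36 and 11.37 in control. The order was the same on every array, with the LE above the hub and the hub above control. Itgb1 was higher at the LE than in the hub by 0.88 ± 0.07 (1.84-fold, adjusted p = 8.97e-05) and than in control by 1.22 ± 0.07 (2.33-fold, adjusted p = 3.71e-06). The hub was higher than control by 0.35 ± 0.07 (1.27-fold, adjusted p = 0.02).

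That last step was the least certain of the Itgb1 differences. Leaving out hub replicate 1, hub replicate 3 or control replicate 1 gave 0.32, 0.34 and 0.30, with adjusted p of 0.0696, 0.0718 and 0.0567. It also missed the threshold with the endothelial marker mean as a covariate (0.38, adjusted p = 0.0526) or with the mean of its probe sets (0.18, adjusted p = 0.138). Itgb1 had 5 probe sets, of which 4 were called higher at the LE than in the hub, by 0.88, 1.02, 0.90 and 0.51. The dimmest, at 4.33 to 4.65 on all arrays, differed by 0.12 and was not called. Between hub and control, the 2 brightest probe sets were called (0.35 and 0.40) and the other 3 differed by 0.03 to 0.06.

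**Figure D2:**
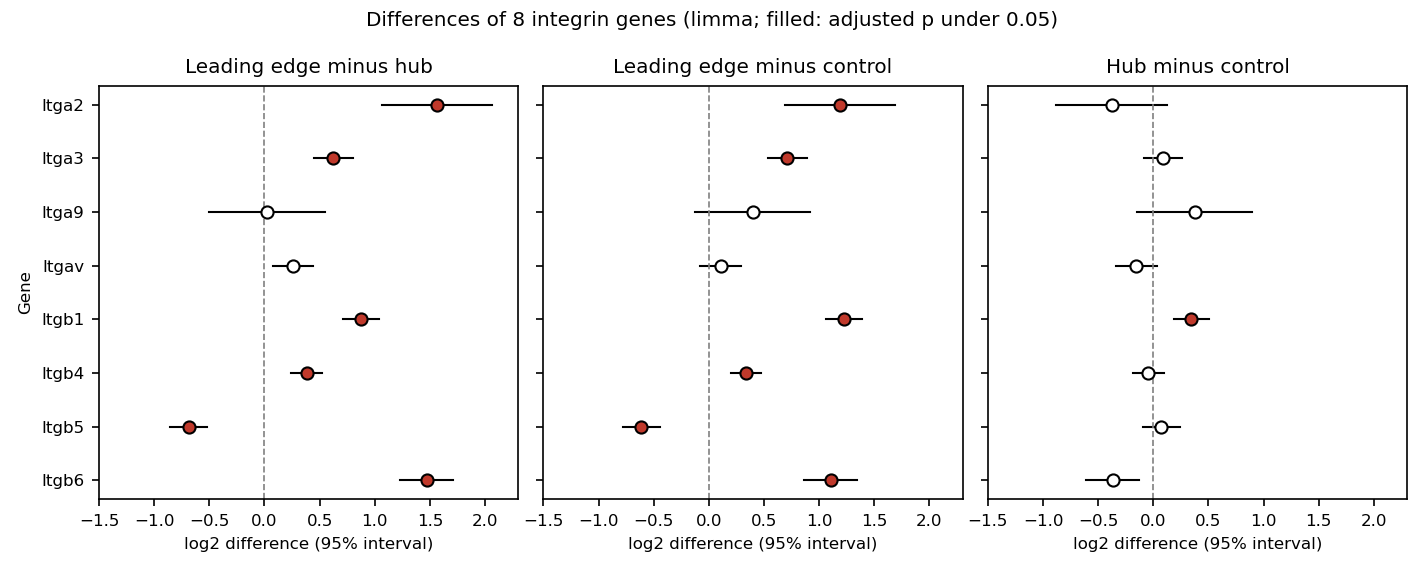
Log2 differences of the 8 genes that were not used for sorting, with 95% intervals from limma, for LE minus hub, LE minus control and hub minus control (filled points, adjusted p under 0.05). Itga2, Itga3, Itgb1, Itgb4 and Itgb6 lie right of 0 and Itgb5 left of 0 in both comparisons with the LE, and only Itgb1 is filled in hub minus control.

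The partners of αv moved in opposite directions. Itgb6 stood at 9.51, 9.78 and 9.42 at the LE, 8.17, 8.004 and 8.12 in the hub and 8.36, 8.44 and 8.59 in control. The 3 groups were apart, with the LE highest and the hub lowest. Itgb6 was higher at the LE than in the hub by 1.47 ± 0.11 (2.77-fold, 95% interval 1.23 to 1.71, adjusted p = 4.75e-05) and than in control by 1.10 ± 0.11 (2.15-fold, adjusted p = 6.93e-05). Hub minus control was -0.37 ± 0.11 and did not pass (adjusted p = 0.0757), although it passed without LE replicate 2 (adjusted p = 0.0463).

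Itgb5, the vitronectin partner of αv, was the 1 gene that was lower at the LE. It stood at 9.43, 9.48 and 9.36 at the LE, 10.04, 10.16 and 10.13 in the hub and 10.04, 9.94 and 10.13 in control. Every LE array lay below every other array, and hub and control overlapped. Itgb5 was 1.61-fold lower at the LE than in the hub (-0.69 ± 0.07, adjusted p = 0.000456) and 1.53-fold lower than in control (-0.61 ± 0.07, adjusted p = 0.000294), and hub minus control was 0.07 ± 0.07. Its second probe set gave -0.57 ± 0.12 between LE and hub (adjusted p = 0.0167 over all probe sets) and -0.32 ± 0.12 between LE and control, which did not pass (adjusted p = 0.0887).

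Itgav, the chain that both of these partners share, did not pass in any comparison. It stood at 10.59, 10.74 and 10.61 at the LE, 10.36, 10.31 and 10.48 in the hub and 10.58, 10.61 and 10.42 in control. The LE arrays lay above the hub arrays and overlapped control. LE minus hub was 0.26 ± 0.08, with an interval of 0.07 to 0.44, and did not pass (adjusted p = 0.0812), while a mean-variance trend (adjusted p = 0.0489) or array weights (adjusted p = 0.0294) put it past the threshold. LE minus control was 0.11 ± 0.08 (adjusted p = 0.424). Its 5 probe sets gave 0.18 to 0.37 between LE and hub, and 0 of them were called.

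Because levels of different probe sets cannot be set against each other, Itgb6 minus Itgb5 was taken on each array and compared between groups. This difference was 2.16 larger at the LE than in the hub and 1.72 larger than in control, and 0.44 smaller in the hub than in control (log2). The pair was chosen after its values were seen, and both genes had been called in opposite directions between the LE and the other groups, so this is a description of the size of the shift and carries no test.

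Both probe sets of Itgb6 put the LE highest, but they differed in how far hub and control lay apart. The dimmer one stood at 9.42, 8.78 and 8.90 at the LE, 7.21, 6.75 and 7.03 in the hub and 8.19, 8.52 and 8.65 in control. On it the hub lay far below control (-1.46 ± 0.19, adjusted p = 0.0026 over all probe sets), where the brighter one gave -0.37. It also gave a larger difference between LE and hub (2.04 ± 0.19, adjusted p = 0.000247) and a smaller one between LE and control (0.58 ± 0.19, adjusted p = 0.0564). The gap between both probe sets was 0.09, 1.00 and 0.52 at the LE, 0.96, 1.26 and 1.09 in the hub and 0.17, -0.07 and -0.06 in control (brighter minus dimmer). It was larger in every hub array than in every control array, by 1.09 on average, a comparison made after its values were seen and given without a test. The annotation used here does not tie either probe set to 1 of the 2 listed starts, and the part that different transcripts play in the gap was not tested.

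**Figure D3:**
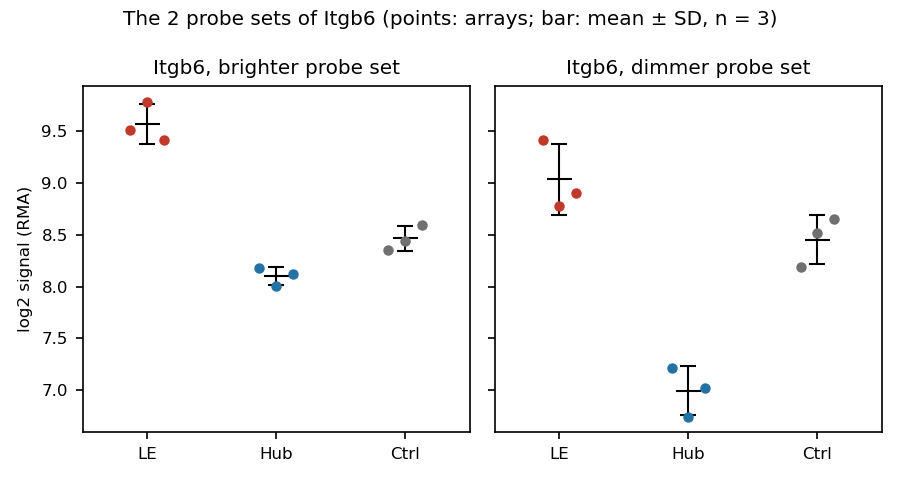
Log2 signal of both Itgb6 probe sets on each array (points), with group mean and SD (n = 3; LE, leading edge; Hub, proliferative hub; Ctrl, control). In the brighter probe set hub and control are 0.37 apart, and in the dimmer one they are 1.46 apart.

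Itgb4, the hemidesmosomal chain, showed the smallest of the called differences. It stood at 12.58, 12.55 and 12.58 at the LE, 12.16, 12.16 and 12.25 in the hub and 12.25, 12.25 and 12.20 in control. The LE was apart from both other groups, which overlapped. It was higher at the LE than in the hub by 0.38 ± 0.06 (1.30-fold, adjusted p = 0.00375) and than in control by 0.34 ± 0.06 (1.26-fold, adjusted p = 0.00329), and hub minus control was -0.04 ± 0.06. Both calls were lost with the myeloid marker mean as a covariate, at 0.37 (adjusted p = 0.0805) and 0.32 (adjusted p = 0.0859), although the differences hardly changed. That mean was higher on every LE array than on any hub or control array, so covariate and group cannot be fully told apart.

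Itga9 was low, and its highest values came from single arrays. It stood at 7.45, 6.58 and 6.68 at the LE, 6.54, 7.27 and 6.84 in the hub and 6.52, 6.51 and 6.49 in control. LE replicate 1 and hub replicate 2 were the highest, and all LE and hub arrays lay above all control arrays by a margin that was small for the others. LE minus hub was 0.02 ± 0.23 (95% interval -0.50 to 0.54, adjusted p = 0.98), LE minus control 0.40 ± 0.23 (adjusted p = 0.277) and hub minus control 0.38 ± 0.23 (adjusted p = 0.45). A second probe set was high on the same arrays, at 6.78 in LE replicate 1 and 6.70 in hub replicate 2. These were also the arrays with the highest endothelial marker mean of their group. Hub replicate 3 had nearly the same marker mean as hub replicate 2 (6.82 and 6.83), with Itga9 at 6.84. The part of endothelial cells in Itga9 was not tested. With that mean as a covariate, a setting added after the data were seen, the differences were -0.059 for LE minus hub, -0.083 for LE minus control and -0.024 for hub minus control.

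**Figure D4:**
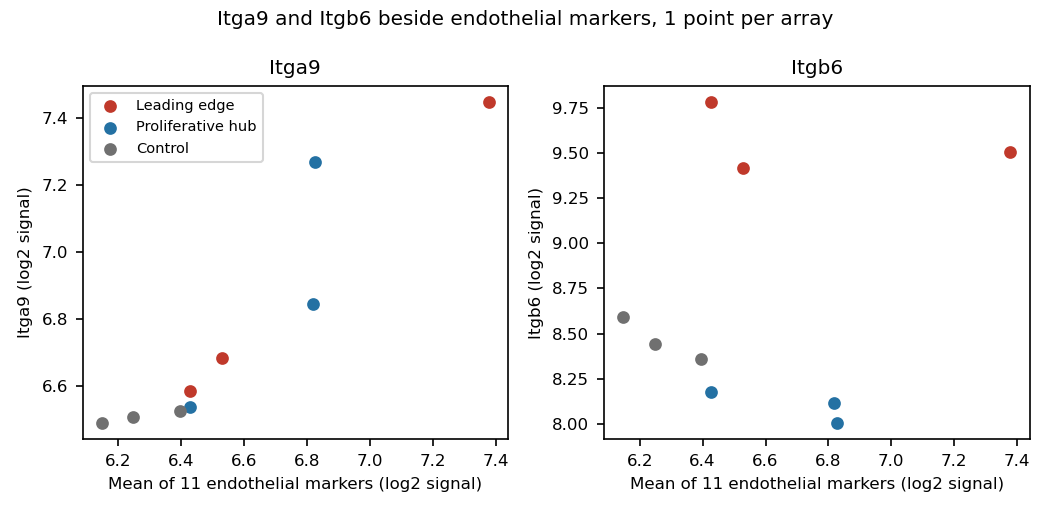
Log2 signal of Itga9 (left) and Itgb6 (right) against the mean log2 signal of 11 endothelial markers, 1 point per array, coloured by group. Itga9 is highest in LE replicate 1 (7.45), which has the highest marker mean, and in hub replicate 2 (7.27). Hub replicate 3 has nearly the marker mean of hub replicate 2 (6.82 and 6.83), with Itga9 at 6.84. For Itgb6, the 3 LE arrays lie at 9.42 to 9.78, with marker means of 6.43 to 7.38.

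Between LE and hub, the 6 called members kept their calls with either covariate, except Itgb4 with the myeloid mean. With the endothelial mean as a covariate, Itga2 differed by 1.57, Itga3 by 0.63, Itgb1 by 0.88, Itgb4 by 0.38, Itgb5 by -0.69 and Itgb6 by 1.49, with adjusted p from 0.000131 to 0.00614. With the myeloid mean, Itga2 differed by 1.73, Itga3 by 0.68, Itgb1 by 0.93, Itgb5 by -0.63 and Itgb6 by 1.67, with adjusted p from 0.00108 to 0.0286. Without LE replicate 1 and hub replicate 2 together, all 6 were called.

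Genes whose pattern was most like that of the 2 members that differed by at least 1 between LE and hub were looked up among the 856 genes whose group means spanned at least 1. Closest to Itgb6 were Flrt3 (r = 0.98), Ndrg1 (r = 0.98) and Rhob (r = 0.97), and closest to Itga2 were 2310030G06Rik (r = 0.95), Flrt3 (r = 0.95) and Itgb6 (r = 0.94), as Pearson correlations over 9 arrays. The arrays fall into 3 groups, which these correlations mostly follow. Flrt3, a leucine-rich transmembrane protein gene, was higher at the LE by 1.24 than in the hub and by 1.02 than in control.

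Of the integrin subunits outside this set, 14 of 17 were measured, and 1 was called higher at the LE than in the hub and 0 lower, with a median difference of 0.06. That gene was Itga7, whose product is a laminin receptor chain best known from muscle, at 6.93, 7.30 and 6.96 at the LE, 6.55, 6.75 and 6.14 in the hub and 6.16, 6.26 and 6.35 in control. It was higher by 0.58 ± 0.16 (adjusted p = 0.0434), and this call was kept in 1 of the 9 fits that left out an array, with adjusted p up to 0.149. Against control, Itga7 was higher (0.81 ± 0.16, adjusted p = 0.00453) and Itga10, a collagen receptor chain of cartilage, was lower (-0.35 ± 0.08, adjusted p = 0.0151). Between hub and control 0 of the 14 were called. The shares of all genes called higher and lower were 5.39% and 5.23% for LE against hub. They were 11.9% and 10.8% for LE against control and 4.16% and 3.12% for hub against control. Itgb2, the leukocyte β chain and a gene chosen after its values were seen, stood at 6.86, 5.53 and 6.17 at the LE, 5.68, 5.72 and 5.50 in the hub and 5.61, 5.30 and 5.56 in control. It was highest on the 2 LE arrays with most myeloid signal and did not pass against the hub (0.55 ± 0.27, adjusted p = 0.266).

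**Figure D5:**
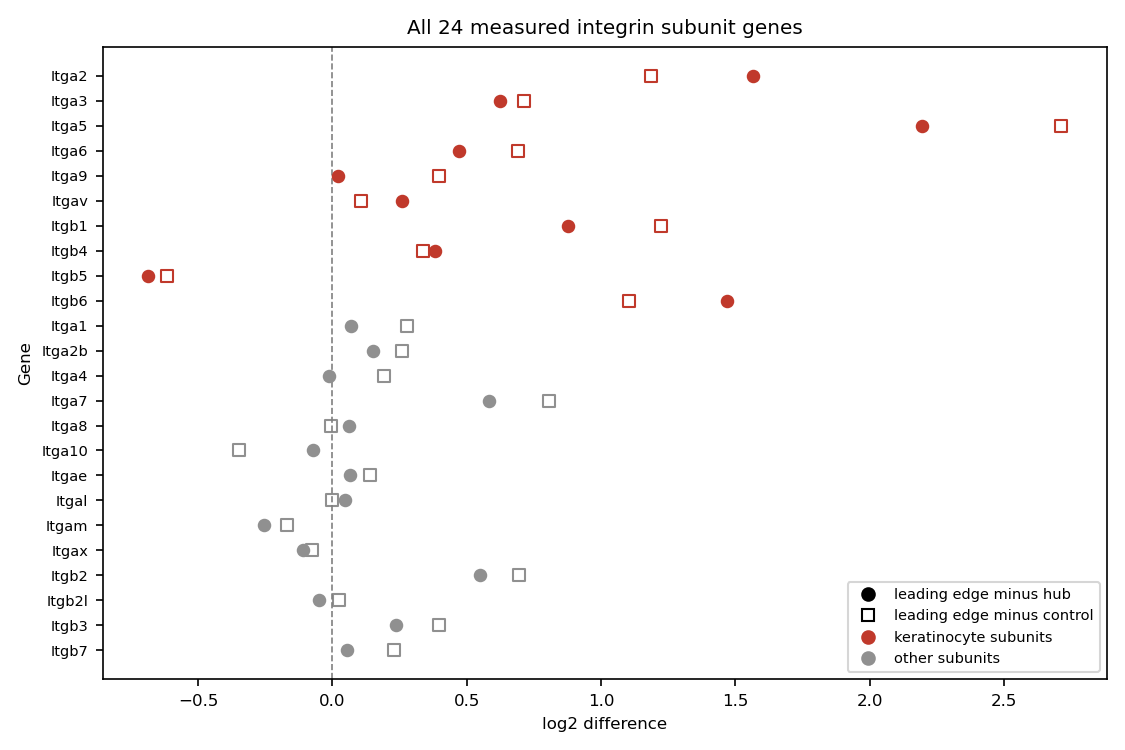
Log2 differences of the measured integrin subunit genes between LE and hub (circles) and between LE and control (squares), with the 10 keratinocyte subunits in red and the 14 others in grey. Itga5, a sort gene, lies farthest right at 2.19 and 2.71, followed by Itga2 and Itgb6 against the hub and by Itgb1 and Itga2 against control.

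Of the integrin ligands, 13 of 17 were measured, and 6 were called higher and 2 lower at the LE than in the hub, with a median of 0.53. Lamb3, a chain of laminin-332, was higher by 0.96 ± 0.07 (adjusted p = 5.1e-05), at 12.77, 12.86 and 12.81 at the LE, 11.85, 11.83 and 11.88 in the hub and 11.46, 11.66 and 11.57 in control. The laminin chain genes Lama3 and Lamc1, the tenascin C gene Tnc and Tgfb1 were the others that passed upward, besides fibronectin. Tnc (0.87 ± 0.08, adjusted p = 0.000166) and Tgfb1 (0.94 ± 0.11, adjusted p = 0.000748) encode ligands of αvβ6, Tgfb1 through its latent peptide.

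Fn1, the fibronectin gene, was higher at the LE by 3.03 ± 0.73 (adjusted p = 0.0273), with values of 11.42, 8.16 and 9.17 at the LE, 5.92, 7.61 and 6.12 in the hub and 6.54, 5.93 and 6.42 in control. The LE arrays spanned the widest range, and Fn1 was highest in LE replicate 1 and in hub replicate 2. The call rested on LE replicate 3 and on hub replicates 1 and 3, since leaving out each of them gave adjusted p of 0.0631, 0.0959 and 0.0891, and it was lost with the myeloid covariate (1.29, adjusted p = 0.525). Postn, the periostin gene, stood at 9.90, 9.74 and 9.53 at the LE, 11.47, 10.84 and 10.80 in the hub and 11.65, 11.60 and 11.75 in control, and was lower at the LE than in the hub (-1.31 ± 0.17, adjusted p = 0.0011). Npnt, the nephronectin gene, was lower at the LE than in the hub (-1.01 ± 0.24, adjusted p = 0.0257) and lower in the hub than in control (-1.08 ± 0.24, adjusted p = 0.0257). Its call between LE and hub was lost without LE replicate 2 or 3 or hub replicate 1 or 2, with the replicate number as a block (adjusted p = 0.0548) and with its probe set of largest variance (-0.81, adjusted p = 0.0654). Against control, 6 ligand genes were higher and 2 lower at the LE, and 2 were higher and 1 lower in the hub. The shares of all genes called higher and lower were 5.39% and 5.23% for LE against hub. They were 11.9% and 10.8% for LE against control and 4.16% and 3.12% for hub against control.

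Of the proteins that switch integrins on or off from inside the cell, 12 of 14 genes were measured, and 4 were called higher and 1 lower at the LE than in the hub, with a median of 0.08. Talin 1 (Tln1, 0.54 ± 0.07, adjusted p = 0.000989) and the kindlins Fermt2 (0.54 ± 0.10, adjusted p = 0.00865) and Fermt3 (0.65 ± 0.09, adjusted p = 0.00211) are activators that bind β tails. Both kindlin calls were lost with the myeloid covariate (0.33, adjusted p = 0.231 for Fermt2 and 0.56, adjusted p = 0.0671 for Fermt3). The kindlin gene Fermt1 was not among the 12 measured genes, and which cells gave the signal of Fermt2 and Fermt3 was not tested. The call of Fermt2 was also lost without LE replicate 1 and hub replicate 2 together (adjusted p = 0.0741), and the probe set of Fermt3 with the largest variance gave 2.35. Filamin A (Flna, 0.63 ± 0.07, adjusted p = 0.000651) competes with talin for the β tail, so genes of both kinds were higher. Sharpin, an inhibitor, was lower (-0.34 ± 0.09, adjusted p = 0.0344). Against control the counts were 4 higher and 1 lower, and between hub and control 0 of the 12 were called. Of all genes, 5.39% were called higher and 5.23% lower between LE and hub, and 11.9% and 10.8% between LE and control.

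Of the membrane proteins that associate with integrins, 9 of 10 were measured, and 4 were called higher and 1 lower at the LE than in the hub, with a median of 0.23. Plaur, the urokinase receptor gene, differed most (1.45 ± 0.15, adjusted p = 0.00038), followed by Cav1 (0.47 ± 0.08) and the tetraspanin genes Cd151 (0.33 ± 0.07) and Cd81 (0.30 ± 0.07). Slc3a2, the CD98 heavy chain gene, was lower (-0.37 ± 0.08, adjusted p = 0.0145) and missed the threshold without LE replicate 2 or hub replicate 2. The call of Cd151 was lost without LE replicate 3 or hub replicate 1, with adjusted p of 0.0542 and 0.059. With the myeloid covariate, the calls of Cav1 (adjusted p = 0.0878), Cd151 (adjusted p = 0.233) and Slc3a2 (adjusted p = 0.0953) were lost. Against control the counts were 4 higher and 1 lower, and in the hub against control 1 higher and 0 lower. The shares of all genes called higher and lower were 5.39% and 5.23% for LE against hub. They were 11.9% and 10.8% for LE against control and 4.16% and 3.12% for hub against control.

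The 4 partners of α6β4 in hemidesmosomes did not move as a block. Plec, the plectin gene that links β4 to keratin, was higher at the LE than in the hub (0.31 ± 0.06, adjusted p = 0.0134), as was Cd151. The call of Plec was lost with the myeloid covariate (adjusted p = 0.167), without hub replicate 1 (adjusted p = 0.0563) and without LE replicate 1 and hub replicate 2 together (adjusted p = 0.0749). Dst, whose epidermal product is the BP230 plaque protein, was lower (-0.40 ± 0.07, adjusted p = 0.00441), at 11.16, 11.01 and 11.09 at the LE, 11.48, 11.46 and 11.53 in the hub and 11.97, 11.92 and 12.02 in control. Its 3 groups did not overlap, and it was also lower in the hub than in control (-0.48 ± 0.07, adjusted p = 0.00299). Dst was thus lowest where Itgb4 was highest. Col17a1, the collagen XVII gene, differed by 0.12 between LE and hub and did not pass.

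Markers of other skin cells were read for the same arrays. Of 4 measured suprabasal markers, 2 were lower at the LE than in the hub and 0 higher, the keratins Krt1 (-1.73 ± 0.32) and Krt10 (-1.47 ± 0.22), while Ivl, the involucrin gene, differed by 0.33 from the hub without passing and was higher at the LE than in control (0.57 ± 0.14, adjusted p = 0.0161). Of 8 fibroblast markers, 1 was lower and 0 higher at the LE than in the hub, Thy1 (-1.23 ± 0.13), and Col1a1 differed by 0.60 without passing. Of 5 Langerhans markers, 1 was higher and 0 lower, H2-Ab1 (1.93 ± 0.37), whereas Cd207, the defining one, differed by -0.06. The call of H2-Ab1 was lost with the myeloid covariate (adjusted p = 0.171) and when its probe sets were averaged (0.99, adjusted p = 0.0723). The Langerhans list mean lay between 6.97 and 7.78 at the LE, against 6.85 to 6.90 in the hub and 6.75 to 6.82 in control, and the melanocyte mean between 5.94 and 6.98 at the LE, against 6.14 to 6.24 in the hub and 6.16 to 6.28 in control. LE replicate 3 was the highest array in both. Of all genes, 5.39% were called higher and 5.23% lower between LE and hub. The melanocyte, T cell and bulge lists had 0 markers called there. The part of these cells in the values of the integrin genes was not tested.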

How the data were processed

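Expression was measured on 9 Affymetrix Mouse Genome 430 PM arrays, 1 per sample. RNA of 300 sorted cells had been amplified as whole-transcriptome cDNA. The authors processed the arrays with RMA (version not given in the sources used here), and the deposited values are log2 signals. RMA gives all arrays 1 distribution, so a change of total RNA cannot be seen, and it compresses differences between dim genes. Arrays have no read depth, and their number limits the precision.

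Gene symbols came from the annotation of the platform. Of 45141 probe sets, 28898 had 1 symbol, 551 had several, 15588 had none and 104 were controls. The probe set with the highest mean stood for each of 17097 genes, dim genes included. A model with a mean for each group was fitted to all 9 arrays (limma 3.58.1, R 4.3.3, lmFit and eBayes), with two-sided tests and Benjamini-Hochberg adjustment over all genes, or over the 28898 probe sets where probe sets are given. Values after ± are SD for group means and standard errors for differences. Replicates are biological by the labels but technical by the methods, so the p-values here measure only how far these samples spread, and that spread may be technical.

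The members and gene lists were chosen with earlier results of these data known. Named were all members, the sort checks Krt5, Krt14 and Cd34, up to 4 called genes per list with the largest difference between LE and hub, and 3 genes most like each called member that differed by at least 1. Other genes of the lists were chosen after their values were seen. Lists were described by counts and medians, with no set test. Marker lists covered basal, suprabasal, bulge, myeloid, endothelial, fibroblast, melanocyte, Langerhans and T cells.

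The model was refitted with the replicate number as a block, with a trend of variance on level, with weights for arrays, after quantile normalization or median centring, without dim genes, with other rules for probe sets, on the 6 arrays compared alone and without each array, and the 2-fold rule of the methods was counted. Covariates for endothelial and myeloid marker means, and leaving out LE replicate 1 with hub replicate 2, were added after the data were seen. The myeloid mean was 5.97 to 6.74 at the LE, 5.91 to 5.94 in the hub and 5.89 to 5.90 in control. This covariate thus overlaps with group, and a call lost with it does not show where the signal came from. The test was tried on simulated data for LE against hub, with 200 of 17097 genes changed in 10 draws. It recovered 61.8% of changes of 0.5, 97.7% of 1 and 100% of 2 (log2), and 4.80% of its calls were false. The real comparison called 1816 genes, far more than were changed in the simulation, so these rates may differ there. Promoter windows were the only sequences used here, with no whole genome and no protein sequences.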

Additional observations from a re-analysis of the deposited data

How the results depend on the processing

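Replicate numbers did not pair the arrays: deviations of same-numbered arrays from their group means correlated at -0.18 to 0.08 over 9 pairs, with 0 above 0.1. With the replicate number as a block, 1629 genes were called between LE and hub, 3661 between LE and control and 1006 between hub and control, against 1816, 3891 and 1244 without it. The counts of members were unchanged by the block except that Itgb1 missed the threshold between hub and control (0.35, adjusted p = 0.0514), which left 0 called higher. Of the other genes named, Npnt lost its call between LE and hub under the block.

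Leaving out each array in turn, 5 members were called higher and 1 lower in both comparisons with the LE in every fit, while 0 to 1 were called higher and 0 to 1 lower between hub and control, and 699 to 1153 of all genes were called there. The count called higher between hub and control was also 0 with the endothelial covariate, without LE replicate 1 and hub replicate 2, and with the mean of all probe sets. The count called lower there was 1 with the mean of all probe sets and with the probe set of largest variance, in both cases Itgb6 (-0.91 and -1.46). Under the fold rule (over 2-fold in each same-numbered pair, with no test), 1 member was higher and 0 lower between LE and hub (Itgb6), 1 higher and 0 lower between LE and control (Itgb1), and 0 higher between hub and control, with 178, 515 and 89 genes over all in the same comparisons.

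Over all genes, the calls between LE and hub were 678 with the myeloid covariate and 969 without LE replicate 1 and hub replicate 2, those between LE and control were 1721 with the myeloid covariate, and those between hub and control were 638 with the endothelial covariate, 618 without both arrays and 766 with only the 6 arrays compared. The sign of Itga9, which was called nowhere, turned: between LE and hub to -0.12 with array weights, -0.059 with the endothelial covariate, -0.40 with the myeloid covariate, -0.056 without both arrays and between -0.25 and 0.22 when 1 array was left out, between LE and control to -0.083 and -0.055 with the endothelial and myeloid covariates, and between hub and control to -0.024 with the endothelial covariate. The causes were not tested. Signal within the range of nonspecific probe sets limits, among other genes, Itga9, Itga7, Itga10, Itgb2, Fermt2 and Fermt3 in all groups. It also limits Itga2, Itga5, Itgb6, Fn1 and Plaur in hub and control, Fn1 in LE replicate 2, Npnt at the LE and Tgfb1 in control. The folds of these genes are less certain, and 3 arrays per group limit all comparisons.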

Other observations

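The β1 and β4 chains, which both were higher at the LE, did not shift by the same amount. Itgb1 minus Itgb4, taken on each array after the values of both were seen, was larger at the LE than in the hub by 0.50, larger at the LE than in control by 0.89 and larger in the hub than in control by 0.39 (log2). The arrays of any pair of groups did not overlap. Since the pair was chosen from its values, no test is given.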
